A study of Drosophila busckii and Drosophila melanogaster and Drosophila virilis with 5 samples.

Results

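The boundaries between topologically associating domains (TADs) of Drosophila busckii embryos were set against those of D. melanogaster embryos, taking every line of the 2 deposited boundary lists. The lists held 2134 boundaries in D. busckii and 2209 in D. melanogaster, together 4343 of the 6470 boundaries deposited for the 3 species of the study. Each pair of neighbouring boundaries of an arm delimits a TAD, measured here from centre to centre, which gave 2128 TADs in D. busckii and 2203 in D. melanogaster on the 6 arms (X, chromosome 4 and both arms of chromosomes 2 and 3). Both maps come from in situ Hi-C, in which DNA is cut with DpnII and ends that lie close together in the fixed nucleus are ligated, on mixed-sex embryos of stage 15 to 16. D. busckii embryos came from a stock of the San Diego stock center, and D. melanogaster embryos were of the strain labelled w1118 Oregon R. Each species is represented by 1 map summed from 2 replicates, so there is no replicate list, no spread between embryos and no test in what follows. Intervals of 95% are order-statistic intervals for medians and exact binomial intervals for shares, and they cover counting error only. Per the methods, D. busckii embryos were fixed a single time while being broken up, whereas D. melanogaster embryos were fixed whole and then again while being broken up. Unligated ends were removed only from D. busckii samples, and more useful reads were obtained for D. busckii. Species and protocol therefore cannot be told apart in any difference given here.

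A TAD is a segment of the chromosome that folds mostly onto itself, so that contacts within it outnumber contacts with the adjoining segments. In Drosophila, boundaries commonly lie at active promoters and at sites of architectural proteins such as BEAF-32, and long TADs often cover silent or developmentally regulated genes. The score in each list is a TAD-separation score, and a low score marks a strong boundary. Scores were ranked within a list and never compared between the lists. D. busckii is distantly related to D. melanogaster within the genus, and its dot chromosome (chromosome 4) is fused to the sex chromosomes. The arm names of D. busckii were given by the authors from alignment to D. melanogaster.

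What a boundary looks like at the base level is shown for the D. melanogaster boundaries that open and close the longest run of short TADs (5 TADs on arm 2L, the longer in kb of 2 such runs) and the longest run of long TADs (7 TADs, X). Each window is 150 bases of the RefSeq genome (BDGP6), plus strand, centred on the boundary, and lies at chr2L:6448261-6448410, chr2L:6498513-6498662, chrX:4702730-4702879 and chrX:5515484-5515633 in the order shown. Capitals mark CGATA or its reverse complement TATCG, the core that BEAF-32 binds, a motif chosen after the windows had been seen. The windows at the first and last boundary of the other run of 5 short TADs, on 3R, are not printed, and neither held the motif. No D. busckii window is shown because its genome sequence was not used here.
Short run, first boundary: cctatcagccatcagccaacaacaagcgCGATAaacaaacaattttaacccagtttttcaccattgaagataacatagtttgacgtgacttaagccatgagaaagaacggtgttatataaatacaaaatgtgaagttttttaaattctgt
Short run, last boundary: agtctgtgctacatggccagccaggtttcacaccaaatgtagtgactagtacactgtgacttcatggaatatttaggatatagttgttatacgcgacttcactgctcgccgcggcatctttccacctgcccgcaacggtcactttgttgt
Long run, first boundary: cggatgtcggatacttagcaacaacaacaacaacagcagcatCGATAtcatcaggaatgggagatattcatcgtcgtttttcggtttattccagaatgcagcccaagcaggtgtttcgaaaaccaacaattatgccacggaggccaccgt
Long run, last boundary: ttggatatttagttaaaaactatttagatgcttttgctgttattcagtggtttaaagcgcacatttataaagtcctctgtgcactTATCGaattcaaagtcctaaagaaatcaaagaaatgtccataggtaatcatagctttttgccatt

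The short core CGATA was found on either strand in 23.5% of the 2209 D. melanogaster boundary windows of this length (interval 21.8 to 25.4%), against 17.4% of 2203 windows centred on TAD midpoints (15.9 to 19.1%). Boundaries that open a short TAD held it in 26.3% of 551 windows and those that open a long TAD in 22.5% of 551, and the intervals, 22.7 to 30.2% for short and 19.1 to 26.2% for long TADs, overlapped. The full palindrome TATCGATA, which contains the core, was in 3.08% of boundary windows and 0.863% of midpoint windows. Mean GC content was 40.4% in boundary windows and 42.8% in midpoint windows, and the part of base composition in these contrasts was not tested. A match is a description of the sequence and not a bound site.

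The D. busckii length distribution was narrower than that of D. melanogaster and lay inside it at both ends. At the 5th percentile TADs measured 6.18 kb in D. busckii (5.68 to 6.65 kb), against 4.39 kb in D. melanogaster (4.14 to 4.87 kb), a difference of 40.7%. At the 10th percentile they measured 8.39 kb in D. busckii and 6.73 kb in D. melanogaster, a difference of 24.7%. The order then turned: the cumulative curves crossed at 14.3 kb, below which lay 19.03% of D. busckii TADs and 19.06% of D. melanogaster TADs. The median was 33.1 kb in D. busckii (31.5 to 34.7 kb) and 35.5 kb in D. melanogaster (34.3 to 37.0 kb), a difference of -6.57%, and these intervals overlapped slightly. The upper end differed more. The 90th percentile was 116 kb in D. busckii (107 to 128 kb) and 133 kb in D. melanogaster (120 to 146 kb), and the 99th percentile was 284 kb in D. busckii (262 to 342 kb) and 377 kb in D. melanogaster (319 to 483 kb). At both percentiles the intervals of the species overlapped.

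The difference in spread sat in the tails and not in the middle of the distribution. The SD of log10 length was 0.423 in D. busckii and 0.470 in D. melanogaster, and the ratio of the 90th to the 10th percentile was 13.8 in D. busckii and 19.7 in D. melanogaster. The ratio of the upper to the lower quartile was nearly the same, 3.29 in D. busckii and 3.32 in D. melanogaster. Because long TADs weigh on the mean, the mean differed more than the median, with 51.6 ± 59.6 kb in D. busckii and 58.9 ± 87.0 kb in D. melanogaster (SD over the TADs of each map).

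Counted in size classes, D. busckii had fewer of the shortest and of the longest TADs and more just above the shortest. TADs of up to 5 kb numbered 62 in D. busckii (2.91%, 2.24 to 3.72%) and 142 in D. melanogaster (6.45%, 5.46 to 7.55%). TADs over 10 and up to 20 kb numbered 361 in D. busckii (17.0%, 15.4 to 18.6%) and 255 in D. melanogaster (11.6%, 10.3 to 13.0%). In both of these classes the intervals did not overlap. The class over 20 and up to 50 kb held 852 D. busckii TADs (40.04%) and 884 D. melanogaster TADs (40.1%). Over 150 kb there were 142 TADs in D. busckii (6.67%, 5.65 to 7.82%) and 185 in D. melanogaster (8.40%, 7.27 to 9.64%). In this class the intervals overlapped. These longest TADs covered 32.5 Mb or 29.6% of the D. busckii span between outermost boundaries, and 48.9 Mb or 37.7% of the D. melanogaster span. More than 500 kb was reached by 2 TADs in D. busckii and by 10 in D. melanogaster.

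**Figure D1:**
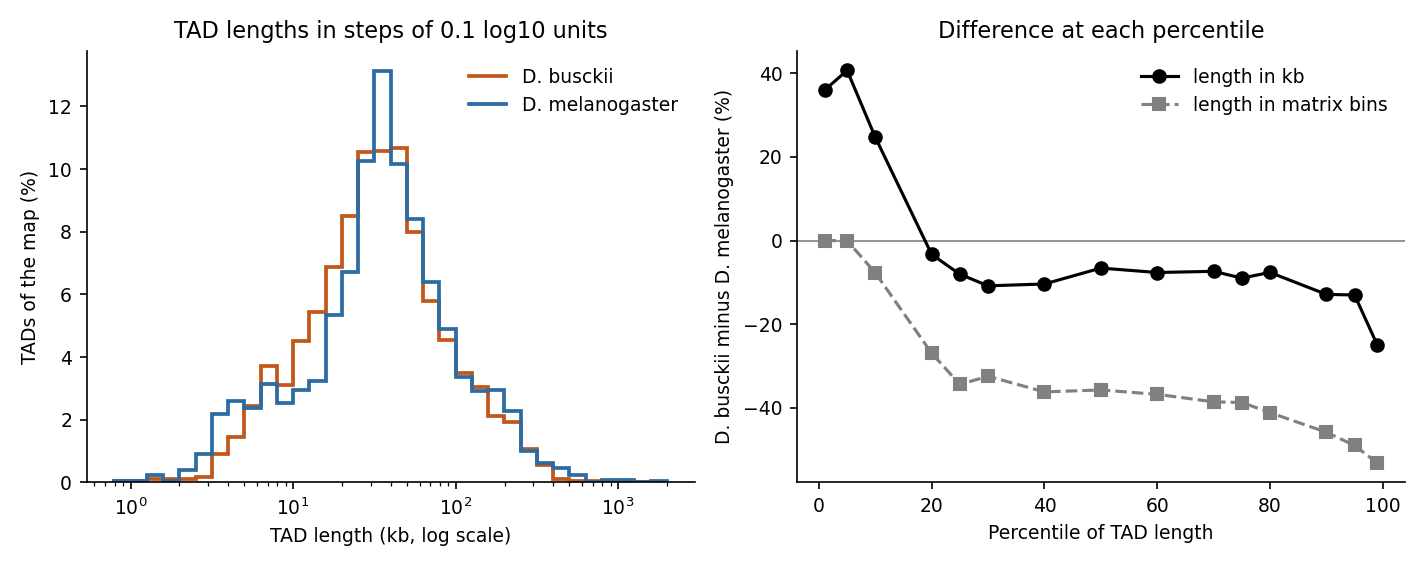
Left, share of TADs (%) in each step of 0.1 log10 units of length (kb, log axis) in D. busckii and D. melanogaster. Right, difference of D. busckii from D. melanogaster (%) at percentiles of length, in kb (circles) and in matrix bins (squares): in kb the difference is 40.7% at the 5th percentile and -24.9% at the 99th.

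The maps did not have the same resolution, and this moves with the short end of the distribution. The identifiers of the boundaries rise along every arm as bin numbers of the contact matrix do, and on this reading a bin spanned 1107 bp on average in D. busckii and 740 bp in D. melanogaster. Boundary intervals, which mark how closely a boundary was placed, had a median width of 1060 bp in D. busckii and 737 bp in D. melanogaster. Counted in bins, the shortest TADs of the maps were alike: the 5th percentile was 8 bins in both, and the 10th was 12 bins in D. busckii and 13 bins in D. melanogaster. The median TAD held 36 bins in D. busckii and 56 bins in D. melanogaster. Bins were not equally dense within a map either. TADs of up to 10 kb averaged 0.658 kb per bin in D. busckii and 0.523 kb in D. melanogaster, and TADs over 150 kb averaged 1.47 kb in D. busckii and 0.896 kb in D. melanogaster. The part of bin size in the difference at the short end was not tested. Leaving out TADs of 8 or fewer bins, 114 in D. busckii and 112 in D. melanogaster, the SD of log10 length was 0.383 in D. busckii and 0.420 in D. melanogaster.

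By arm, 2R was the only arm with more boundaries in D. busckii. Leaving it out moved the difference in the median most: without 2R the mean differed by -9.26% (-12.4% with all arms), the TADs per Mb by 10.2% (14.2%) and the SD of log10 length by -0.041 (-0.047), while the median differed by -2.83% (-6.57%). Arm 2R carried 531 boundaries in D. busckii and 420 in D. melanogaster over spans of nearly equal length, 24.0 Mb in D. busckii and 24.3 Mb in D. melanogaster. Of 10 equal parts of this span, the first 2 held only 3 and 20 boundaries in D. melanogaster and the others 46 to 58 each. In D. busckii each part held 39 to 66. Without the outer 10% of arms the 2R median differed by -15.6%. Its median TAD was 30.3 kb in D. busckii (27.6 to 32.5 kb) and 35.1 kb in D. melanogaster (32.7 to 39.5 kb), the only arm whose intervals did not overlap. With the stronger 50% of each list the median differed by 1.32% on 2R, -33.9% on 3L and -23.6% on 3R. On each of the other 5 arms D. busckii had fewer boundaries, with 1603 against 1789 in D. melanogaster in all. On 2L the median TAD was 36.8 kb in D. busckii and 36.6 kb in D. melanogaster, and on X it was 34.4 kb in D. busckii and 35.96 kb in D. melanogaster. The medians of 3L and 3R were 33.9 and 33.7 kb in D. busckii and 35.2 and 34.5 kb in D. melanogaster, and that of chromosome 4 was 31.1 kb in D. busckii and 34.9 kb in D. melanogaster. Over the 5 long arms the medians ranged over 6.55 kb in D. busckii and 2.10 kb in D. melanogaster.

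Density and spread followed the arms differently. Arms 2L, 3L, 3R and 4 were shorter in D. busckii with differences in span of -19.5% (2L) to -26.8% (3L), and the number of boundaries there differed by -9.38% (4) to -15.6% (2L). TADs were therefore denser in D. busckii on 5 of 6 arms, most on 2R with 22.0 per Mb in D. busckii and 17.3 in D. melanogaster. X was the exception, with 16.6 TADs per Mb in D. busckii and 16.7 in D. melanogaster over spans of 22.6 Mb in D. busckii and 22.9 Mb in D. melanogaster. X was also where the mean was not lower, with 60.1 kb in D. busckii and 59.7 kb in D. melanogaster. The share of X TADs of 150 kb or more was 10.4% in D. busckii (39 of 376) and 9.11% in D. melanogaster (35 of 384), and the share of up to 10 kb was 10.6% in D. busckii (40) and 16.1% in D. melanogaster (62). The SD of log10 length was smaller in D. busckii on all 5 long arms, with differences of -0.0292 (3R) to -0.0762 (3L), and larger on chromosome 4 (0.329 in D. busckii, 0.281 in D. melanogaster), where there were only 28 TADs in D. busckii and 31 in D. melanogaster. The longest TAD was shorter in D. busckii on all 6 arms. The gap was smallest on chromosome 4, with 84.3 kb in D. busckii and 92.5 kb in D. melanogaster, and on 2R the longest TADs measured 586 kb in D. busckii and 1721 kb in D. melanogaster.

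**Figure D2:**
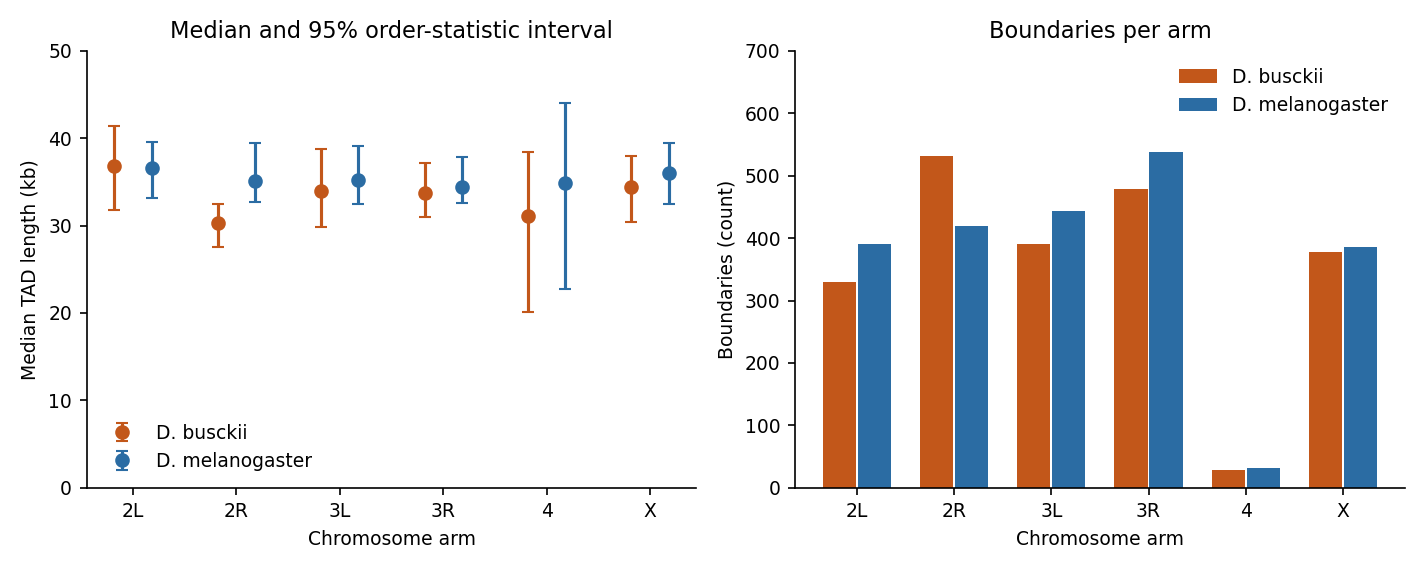
Left, median TAD length (kb) by chromosome arm with 95% order-statistic intervals, D. busckii left of D. melanogaster. Right, number of boundaries per arm: 2R is the only arm with more boundaries in D. busckii (531 against 420 in D. melanogaster).

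Of 10 equal parts of each long arm, the one with the fewest boundaries lay inside the arm in D. busckii on 2L, 2R, 3L and X. On 3R it was the first part in D. busckii (39 boundaries). In D. melanogaster it lay at the end next to the centromere on 2R, 3L, 3R and X. On 2L it was part 7 in D. melanogaster, inside the arm (24 boundaries). In the standard D. melanogaster genome arms 2L, 3L and X end at the centromere and arms 2R and 3R begin there, and the assembly runs into repeat-rich pericentromeric heterochromatin, which is silent and compacted. With each arm's span cut into 10 equal parts, the first part of 2R held 65 boundaries in D. busckii (27.0 per Mb) and 3 in D. melanogaster (1.24 per Mb). The last parts of 2L, 3L and X held 39, 37 and 35 boundaries in D. busckii and 28, 16 and 15 in D. melanogaster, and the first part of 3R held 39 in D. busckii and 17 in D. melanogaster. Over the 50 parts of the long arms the density ran between 12.4 and 27.4 boundaries per Mb in D. busckii and between 1.24 and 23.9 in D. melanogaster, and its median was 18.4 in D. busckii and 18.6 in D. melanogaster. A shorter stretch with few boundaries did lie near an arm end in D. busckii, a run of 5 long TADs over 1111 kb of X centred at 96.5% of the span. The orientation of the D. busckii arms was not given in the sources used here, so parts of an arm are not matched between species.

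The ends of arms carried much of the difference in means. TADs with their midpoint in the outer 10% at either end averaged 48.8 kb in D. busckii (446 TADs) and 74.6 kb in D. melanogaster (347 TADs), whereas their medians were 33.9 kb in D. busckii and 36.5 kb in D. melanogaster. In the inner part the mean was 52.3 kb in D. busckii (1682 TADs) and 55.9 kb in D. melanogaster (1856 TADs), and the median 33.0 kb in D. busckii and 35.1 kb in D. melanogaster. Of the TADs over 500 kb, 0 of 2 lay in the outer parts in D. busckii and 6 of 10 in D. melanogaster. The inner SD of log10 length was 0.426 in D. busckii and 0.461 in D. melanogaster. How much of the pericentromeric sequence each assembly holds was not examined.

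**Figure D3:**
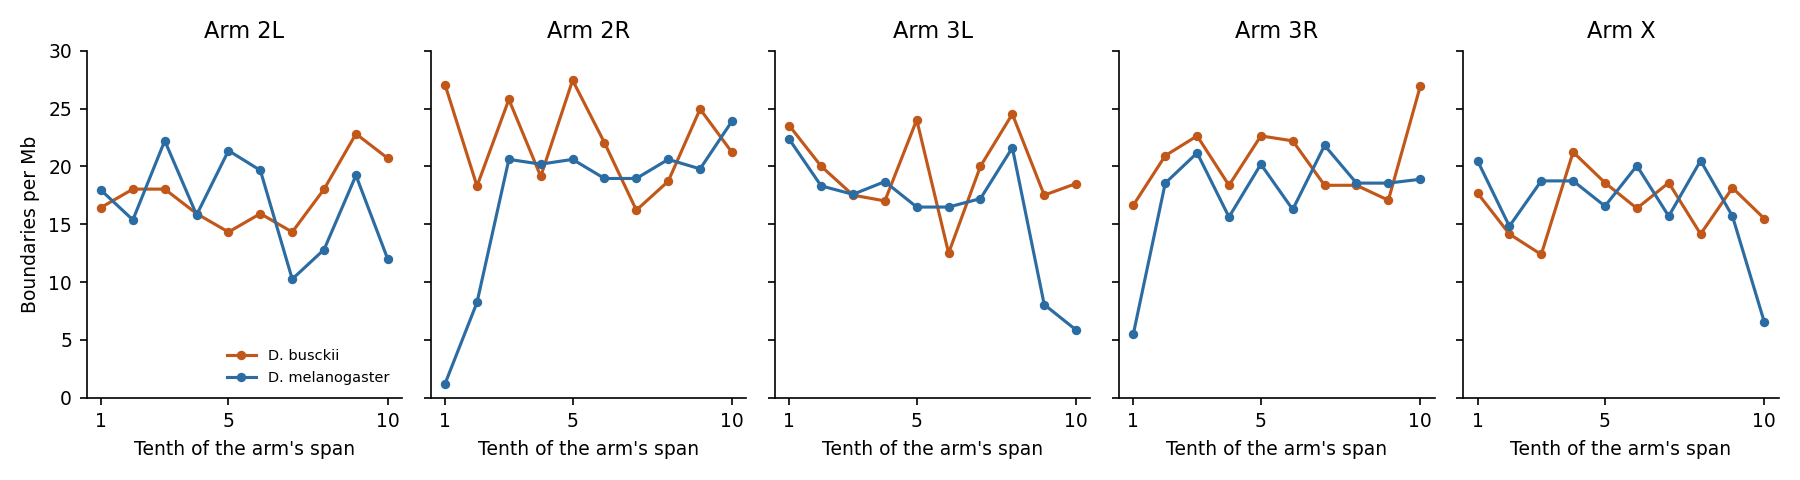
Boundaries per Mb in each of 10 equal parts of the span of the 5 long arms, D. busckii and D. melanogaster. The D. melanogaster line drops at the last part of 2L, 3L and X and the first of 2R and 3R, down to 1.24 per Mb, while the D. busckii line stays at or above 12.4 per Mb.

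Neighbouring TADs were nearly independent in length in both maps. The rank correlation between a TAD and the next on its arm was -0.060 in D. busckii (2122 pairs) and -0.049 in D. melanogaster (2197 pairs), and from 2 to 8 steps apart it lay within -0.021 and 0.040 in both. Each pair shares a boundary, and the pairs are not independent. By arm the correlation with the next TAD ran between -0.389 (chromosome 4, 27 pairs) and 0.059 (2L, 327 pairs) in D. busckii and between -0.083 (2R, 418 pairs) and -0.011 (2L, 388 pairs) in D. melanogaster.

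Over each map as a whole, short TADs followed short TADs less often than they followed TADs of any length, but in D. busckii not on every arm. Short here means the shortest 25% of a map, up to 17.7 kb in D. busckii and 19.2 kb in D. melanogaster. A short TAD was followed by a short TAD in 103 of 530 cases in D. busckii (19.4%, 16.1 to 23.1%) and in 113 of 551 in D. melanogaster (20.5%, 17.2 to 24.1%), whereas 25.02% of all TADs in D. busckii and 25.08% in D. melanogaster were followed by a short TAD. With the shortest 25% taken on each arm, the share in D. busckii was 29.3% on 2L (19.7 to 40.4%) and 25.8% on 3L (17.4 to 35.6%). Among all TADs of these arms it was 24.8% and 25.3%. The D. busckii share was 16.5% on 2R, 15.8% on 3R and 16.0% on X. In D. melanogaster it ran between 16.7% (X) and 22.4% (2L) on the long arms, below the share among all on each. Short TADs stood alone in 65.2% of cases in D. busckii and 63.5% in D. melanogaster. Runs of 3 or more short TADs numbered 16 in D. busckii and 19 in D. melanogaster.

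Long TADs, the longest 25%, reached from 58.1 kb in D. busckii and 63.8 kb in D. melanogaster. They were followed by a long TAD in 122 of 531 cases in D. busckii (23.0%, 19.5 to 26.8%) and in 138 of 549 in D. melanogaster (25.1%, 21.6 to 29.0%). Among all TADs, 25.02% in D. busckii and 24.9% in D. melanogaster were followed by a long TAD, in each species inside that interval. Runs of 3 or more numbered 23 with 80 TADs in D. busckii and 26 with 96 TADs in D. melanogaster, and the longest had 5 TADs in D. busckii and 7 in D. melanogaster. X differed most among the long arms. With the longest 25% taken on X alone, a long TAD was followed by another in 14 of 93 cases in D. busckii (15.1%, 8.48 to 24.0%) and in 27 of 96 in D. melanogaster (28.1%, 19.4 to 38.2%), and these intervals overlapped. Among all TADs of X the share was 25.1% in D. busckii and 24.8% in D. melanogaster. The rank correlation between neighbours on X was -0.148 in D. busckii (375 pairs) and -0.028 in D. melanogaster (383 pairs). X was singled out of 6 arms after its values had been seen.

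**Figure D4:**
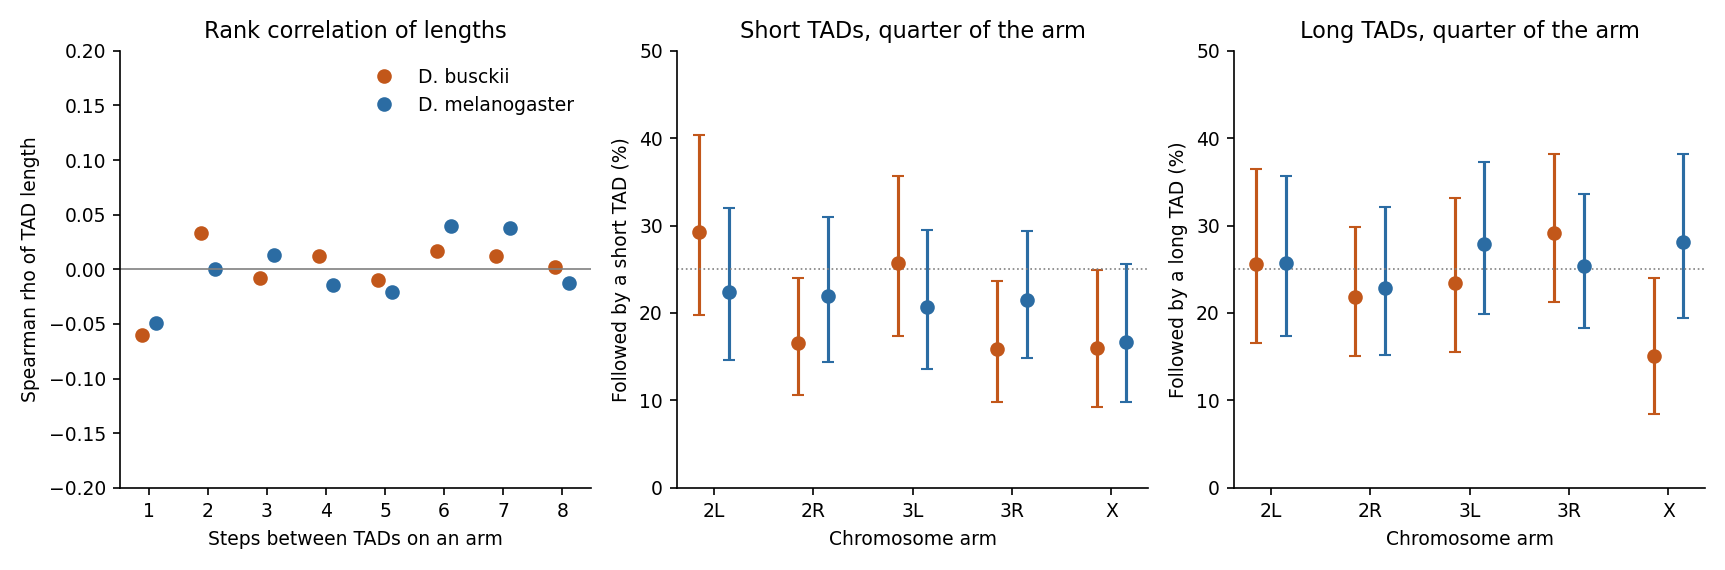
Left, rank correlation of TAD length against the number of steps between TADs. Middle and right, share (%) of short and of long TADs, taken as 25% of each long arm, that are followed by a TAD of the same kind, with 95% exact binomial intervals and a dotted line at 25%, D. busckii left of D. melanogaster. On X 15.1% of long TADs are followed by a long TAD in D. busckii and 28.1% in D. melanogaster.

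The longest run of short TADs in D. busckii was on 3L, at chr3L:15240344-15312506 of the D. busckii assembly, with 5 TADs of 11.0 to 16.7 kb and 18 coding genes in 72.2 kb. D. melanogaster had 2 such runs of 5. The run at chr2L:6448336-6498587 had 5 TADs of 4.06 to 18.2 kb with 14 coding genes in 50.2 kb, among them retm, Rchy1, Daxx, mmy, an enzyme gene of UDP-N-acetylglucosamine synthesis, and Sec61alpha, a subunit gene of the protein translocation channel. The run at chr3R:27916801-27961094 had 5 TADs of 5.86 to 15.6 kb with 16 coding genes, among them mino, mfrn, a mitochondrial iron carrier gene, the histone methyltransferase gene NSD, BOD1 and Gp93, a chaperone gene of the endoplasmic reticulum. On X the longest short runs had 3 TADs in either species. That of D. melanogaster, at chrX:12007038-12035255, held Usp7, a deubiquitinase gene, regucalcin, Lsm12a and the cytochrome P450 genes Cyp318a1 and Cyp311a1.

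The longest runs of long TADs are set beside the longest 25% of TADs as a class, which held 68.7 coding genes per Mb in D. busckii and 72.7 in D. melanogaster. In D. busckii 4 runs reached 5 TADs, and the longest in kb, at chrX:21282705-22393961, measured 1111 kb and held 42 coding genes (37.8 per Mb). The other runs of 5 lay on 2L (32.0 per Mb), 3L (45.2 per Mb) and 2R, where coding genes were denser than in the class (94.3 per Mb). The run of 7 TADs of D. melanogaster, at chrX:4702805-5515558, measured 813 kb, with TADs of 75.4 to 248 kb and 51 coding genes (62.8 per Mb). Its longest named genes were rg, which encodes an A-kinase anchor protein, SK, a calcium-activated potassium channel gene, the sex peptide receptor gene SPR, ovo, a transcription factor gene of the germ line, and the proctolin receptor gene Proc-R. Its first and last boundaries are the X windows printed above. The other D. melanogaster runs of 5 or more long TADs were gene-poorer than the class as well. On 2R a run of 6 TADs over 3668 kb, which includes the TAD of 1721 kb, held 6.27 coding genes per Mb. On 2L a run of 5 TADs over 940 kb held 56.4 per Mb.

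How many genes a TAD holds was counted with the RefSeq annotation of assembly ASM1175060v1, made from the same D. busckii stock, and with Ensembl release 115 for D. melanogaster. The coordinates of the D. busckii list were checked against that annotation: 74.3% of boundary centres lay within 1000 bp of an end of a coding gene (at least 55.2% on each arm), against 43.1% after all centres were moved by 5000 bp. The deposited coordinates were therefore used with it as they stand. TADs held 12031 coding genes in D. busckii and 13911 in D. melanogaster. The median was 5 coding genes per TAD in both maps, and the mean was 5.65 in D. busckii and 6.31 in D. melanogaster, a difference of -10.5%. With the RefSeq annotation of D. melanogaster in place of Ensembl the mean differed by -10.3%. Different annotation pipelines stand behind the 2 gene sets, and their part in this difference was not tested. Per Mb of TADs there were 109.6 coding genes in D. busckii and 107.2 in D. melanogaster, a difference of 2.22%, while mean TAD length differed by -12.4%.

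Within a size class, short TADs of both species were packed alike. TADs of up to 10 kb, over 10 and up to 20 kb, and over 20 and up to 50 kb held 303, 257 and 166 coding genes per Mb in D. busckii and 297, 246 and 167 in D. melanogaster. In longer TADs D. busckii had fewer, with 94.1 per Mb in D. busckii and 110 in D. melanogaster over 50 and up to 100 kb, and 54.6 in D. busckii and 59.1 in D. melanogaster over 150 kb. TADs over 150 kb held 1773 coding genes in D. busckii and 2890 in D. melanogaster. Of the latter, 118 lay in a single TAD, 111 of them histone genes. TADs of up to 10 kb without any coding gene midpoint were 22 of 259 in D. busckii (8.49%, 5.40 to 12.6%) and 43 of 319 in D. melanogaster (13.5%, 9.93 to 17.7%).

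By arm, coding genes and boundaries differed in the same direction except on 2R. The number of coding genes in TADs differed by -26.9% on 2L, -14.3% on 3L, -16.7% on 3R, -4.0% on 4 and -6.40% on X, where the number of boundaries differed by -15.6%, -12.2%, -11.2%, -9.38% and -2.08%. On 2R the coding genes in TADs numbered 2785 in D. busckii and 2845 in D. melanogaster (-2.11%), while the number of boundaries differed by 26.4%, and a 2R TAD held 5.25 coding genes on average in D. busckii and 6.79 in D. melanogaster. The means of 2L, 3L, 3R and X were 5.92, 6.02, 5.96 and 5.44 coding genes in D. busckii and 6.83, 6.17, 6.36 and 5.69 in D. melanogaster. The fullest TAD held 49 coding genes in D. busckii, on 3L, and 118 in D. melanogaster, on 2L. The D. melanogaster one is a TAD of 261 kb in which 111 of the coding genes are histone genes, and it counts in the 2L values above. The longest TAD of D. busckii, at chrX:4354969-5092345 with 737 kb, held 29 coding genes, and its longest on 2R, at chr2R:14404302-14990378 with 586 kb, held 24 coding genes of up to 5.37 kb. The 3 longest TADs of D. melanogaster, of 1721, 1205 and 1115 kb and all in the outer 10% next to a centromere, held the midpoints of 8, 1 and 4 coding genes. The single gene of the TAD of 1205 kb, Myo81F, is 1966 kb long and extends past both boundaries of that TAD.

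**Figure D5:**
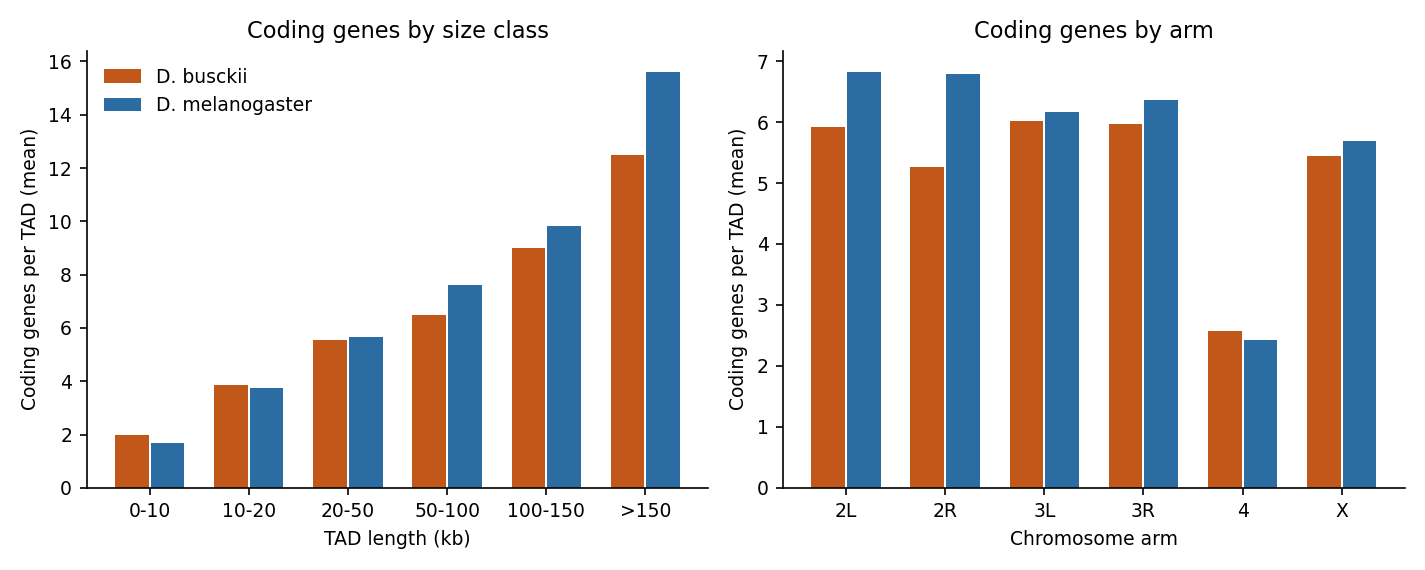
Mean number of coding genes with their midpoint in a TAD, by TAD length class (kb, left) and by chromosome arm (right), D. busckii left of D. melanogaster. The mean on 2R is 5.25 in D. busckii and 6.79 in D. melanogaster, and in TADs over 150 kb 12.5 in D. busckii and 15.6 in D. melanogaster.

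Boundaries lay near gene ends with similar frequency in the maps. In D. busckii 1586 of 2134 boundary centres (74.3%, 72.4 to 76.2%) and in D. melanogaster 1671 of 2209 (75.6%, 73.8 to 77.4%) were within 1000 bp of an end of a coding gene, start or finish. Stretches that close to a gene end made up 28.0% of the D. busckii span and 25.2% of the D. melanogaster span. On 2R, with its many D. busckii boundaries, the share was 73.3% in D. busckii and 77.9% in D. melanogaster. Boundary centres fell inside a coding gene in 51.9% of cases in D. busckii and 63.5% in D. melanogaster, where coding genes covered 57.9% of the span in D. busckii and 68.2% in D. melanogaster.

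Gene clusters were placed in D. melanogaster TADs only, since the D. busckii annotation names its genes by number and allowed no match. Genes of a cluster share TADs, so the counts below are not of separate observations. Of the 13911 coding genes in TADs, 43.5% lay in the longest 25% of TADs and 9.96% in the shortest 25%. The 8 Hox genes, which set segment identity, had their midpoints in TADs of 24.6 to 154 kb, 6 of them in long TADs and 0 in short TADs. Abd-B is longer than the TAD of 24.6 kb that holds its midpoint. The Iroquois genes ara, caup and mirr, transcription factor genes of wing and eye patterning, shared a TAD of 201 kb. The 11 E(spl) genes, targets of Notch signalling, shared a TAD of 60.5 kb, below the limit for long TADs. Of 23 Osiris genes, 21 lay in long TADs, but in only 2 of them, with 20 genes in a TAD of 197 kb. Of the 9 chorion genes, which build the eggshell, 4 lay in a long TAD, close to the share of all coding genes. Of the 115 annotated histone coding genes 111 lay in a single TAD of 261 kb. Ribosomal protein genes, which are not clustered, lay in 80 TADs: of 84 genes 23 were in long TADs (27.4%) and 19 in short TADs (22.6%). The share in long TADs was below that of all coding genes (43.5%), and the share in short TADs was above it (9.96%). In the longest TAD of 2L, 486 kb, the longest named genes were beat-Ib, beat-Ic and beat-Ia, of the beaten path family of axon guidance, with Ca-alpha1D and PRL-1. The longest TAD of chromosome 4, 92.5 kb, held Syt7, RhoGAP102A, NfI, dpr7 and yellow-h.

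Some long TADs had few matrix bins for their length. The longest TAD of the D. melanogaster X, at chrX:21592162-22443844, spanned 852 kb with only 102 matrix bins, 8.35 kb per bin, where the median TAD had 0.901 kb per bin in D. busckii and 0.622 kb in D. melanogaster. It held 29 coding genes, among them DIP1 and GCS2alpha. The highest value in D. busckii was 3.78 kb per bin, at chr3L:3905114-4014778.

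Ranked within each list, weak boundaries bordered long TADs in both maps. The rank correlation between the score of a TAD's weaker boundary and its length was 0.274 in D. busckii (2128 TADs) and 0.232 in D. melanogaster (2203 TADs), and that between the scores of neighbouring boundaries was 0.225 in D. busckii and 0.189 in D. melanogaster. These correlations are across TADs of 1 map, which share boundaries and are not independent. When only the boundaries at or below each list's median score were kept, 1067 in D. busckii and 1105 in D. melanogaster, the median TAD was 48.5 kb in D. busckii and 59.9 kb in D. melanogaster, a difference of -19.1%.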

How the data were processed

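Boundary lists of the D. busckii and D. melanogaster Hi-C samples were analysed. Per the methods, the authors mapped mates with BWA (version not given in the sources used here), built matrices at restriction fragment resolution with HiCExplorer, summed replicates, merged bins, corrected the matrices and called boundaries with the same settings in both species. The deposited score of each boundary is the authors' TAD-separation score, and the deposited positions were used from 1; the contacts behind a boundary are not in the lists. Reads in repeats were filtered out by the authors and bins with few reads removed, so boundaries there can be missed. Lengths were taken between boundary centres and gene content by gene midpoint. Medians carry order-statistic intervals and shares exact binomial intervals of 95%. No test was run. Members, gene lists and alternatives were chosen with earlier results of these data known. The functions were tested on simulated lists. Named genes were up to 5 longest coding genes with a symbol other than a CG or CR number in the longest TAD of each arm and in the longest runs, plus the gene clusters listed. Python 3.11.15, NumPy 2.4.6, SciPy 1.17.1, pandas and matplotlib 3.10.9 were used. The D. virilis list was only counted, and the D. busckii samples for assembly were not analysed here.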

Additional observations from a re-analysis of the deposited data

How the results depend on the processing

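Of 106 values recomputed under alternatives, 91 moved by less than their counting error and 93 kept their sign. All values below are D. busckii minus D. melanogaster. Where a main difference was itself within its counting error, the first count was easily met and is no measure of stability. This holds for the neighbour rank correlation and the excesses of short after short and long after long TADs. It also holds for the medians of 2L, 3L, 3R, 4 and X. On chromosome 4 the difference in median went from -10.9% to -36.9% with the stronger 50% of boundaries, within its error of 37.8%. On X only, the difference in mean length was 0.624%, in boundary density -0.620%, in the share of TADs of 150 kb or more 1.26 percentage points, in the share of up to 10 kb -5.51 percentage points, in neighbour rank correlation -0.12, and in the excess of long TADs after long TADs -13.3 percentage points. With the stronger 50% of boundaries the difference in median was -19.1% over all arms, 1.32% on 2R, -33.9% on 3L and -23.6% on 3R. Without the outer 10% of arms the difference in density was 6.91%. The quartile ratio in place of the SD of log10 length gave -0.0044. In matrix bins, an alternative added after seeing the data, the differences were -35.7% in the median, -41.5% in the mean and -0.075 in the SD of log10 length. The cause of these shifts was not tested. Without 2R the median differed by -2.83%. No paired analysis was possible because each species has 1 merged list. Boundaries closer than the matrix bins allow cannot be seen, which limits the short end.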
